A study of Lotus japonicus with 16 samples.

Results

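The 71 genes described here belong to the low-phosphate (low-P) response that roots of the legume Lotus japonicus showed at both of 2 growth temperatures. They also responded to high temperature in shoots grown at low P. They were selected on the authors' own calls. A gene was included if it was listed in both root comparisons of low with sufficient phosphate and in the comparison of high with favorable temperature in low-P shoots. It also had to be missing from the same temperature comparison at sufficient P. A listed gene had a DESeq2 adjusted p under 0.05 and a log2 fold change of at least 1 in size. The 71 genes are 13.1% of the 542 genes listed in both root comparisons, among 3958 genes listed anywhere in the 4 deposited tables. Because the calls chose the genes, every fold change below is a description and none is a test. The direction of change was not part of the choice.

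Plants of accession MG-20 grew in hydroponics for 3 weeks at 64 µM (sufficient) or 6.4 µM (low) phosphate. The favorable regime was 23 °C by day and 22 °C by night, and the high one 30 °C and 29 °C. Whole roots and whole shoots were sequenced as poly(A) RNA, with 2 libraries in each of 8 groups, and each replicate pooled 3 plants. The deposited tables give each gene's base mean over the libraries compared and its log2 fold change with standard error (SE, given here after ±), but no value per library, so read depth and the spread between the 2 libraries are unknown. The levels given here were derived from base mean and fold, in normalised counts (reads divided by a library's size factor). Each table was scaled on its own, so no test sets a level of one table against another, and levels set side by side across tables are rough descriptions. The tables do not say which group was the reference. A rise or fall is read here as a higher or lower level in the condition named last in a table, that is low P for roots and high temperature for shoots. The gene identifiers carry no product names in the sources used here, so no member is assigned a function and the labelled tissues could not be checked against marker genes. In bulk tissue, fewer cells of a type and less RNA per cell cannot be told apart.

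Plants short of phosphate switch on a set of genes through transcription factors of the PHR family, which are held back by SPX-domain proteins when phosphate is plentiful. Known targets of this switch in plants include phosphate transporters, secreted acid phosphatases and enzymes that replace membrane phospholipids with lipids free of phosphorus. Roots are the site of uptake, while shoots hold most of the demand and signal their phosphate status to roots. Whether the genes described here belong to this switch, or follow phosphate supply in shoots, was not tested.

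Of the 71 genes, 54 (76.1%) went up in roots at low P under both temperatures and came down at high temperature in low-P shoots. A further 4 rose in all 3 comparisons, 6 fell in roots and rose in shoots, and 7 fell in all 3. None changed direction between the 2 root comparisons. In roots, 58 members rose and 13 fell. Among all genes tested by the authors, 4.67% rose and 5.46% fell in roots at the favorable temperature. At the high temperature 2.27% rose and 1.78% fell. In low-P shoots 10 members rose and 61 fell, against 1.74% and 2.43% of all genes tested. Since listing in these comparisons chose the members, nothing is read from their counts against these shares.

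The members that rose in roots had a median log2 fold change of 2.63 at the favorable temperature, against 1.64 for all 943 genes that rose in the authors' deposited table. At the high temperature the medians were 2.08 for members and 1.58 for all 456 genes that rose in the authors' deposited table. In low-P shoots the 61 members that fell had a median of -1.59, and all 496 genes that fell had a median of -1.51 in the authors' deposited table. Members had to pass in 2 root comparisons and the other listed genes in 1, so the choice of members shapes these gaps and nothing is read from them.

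**Figure D1:**
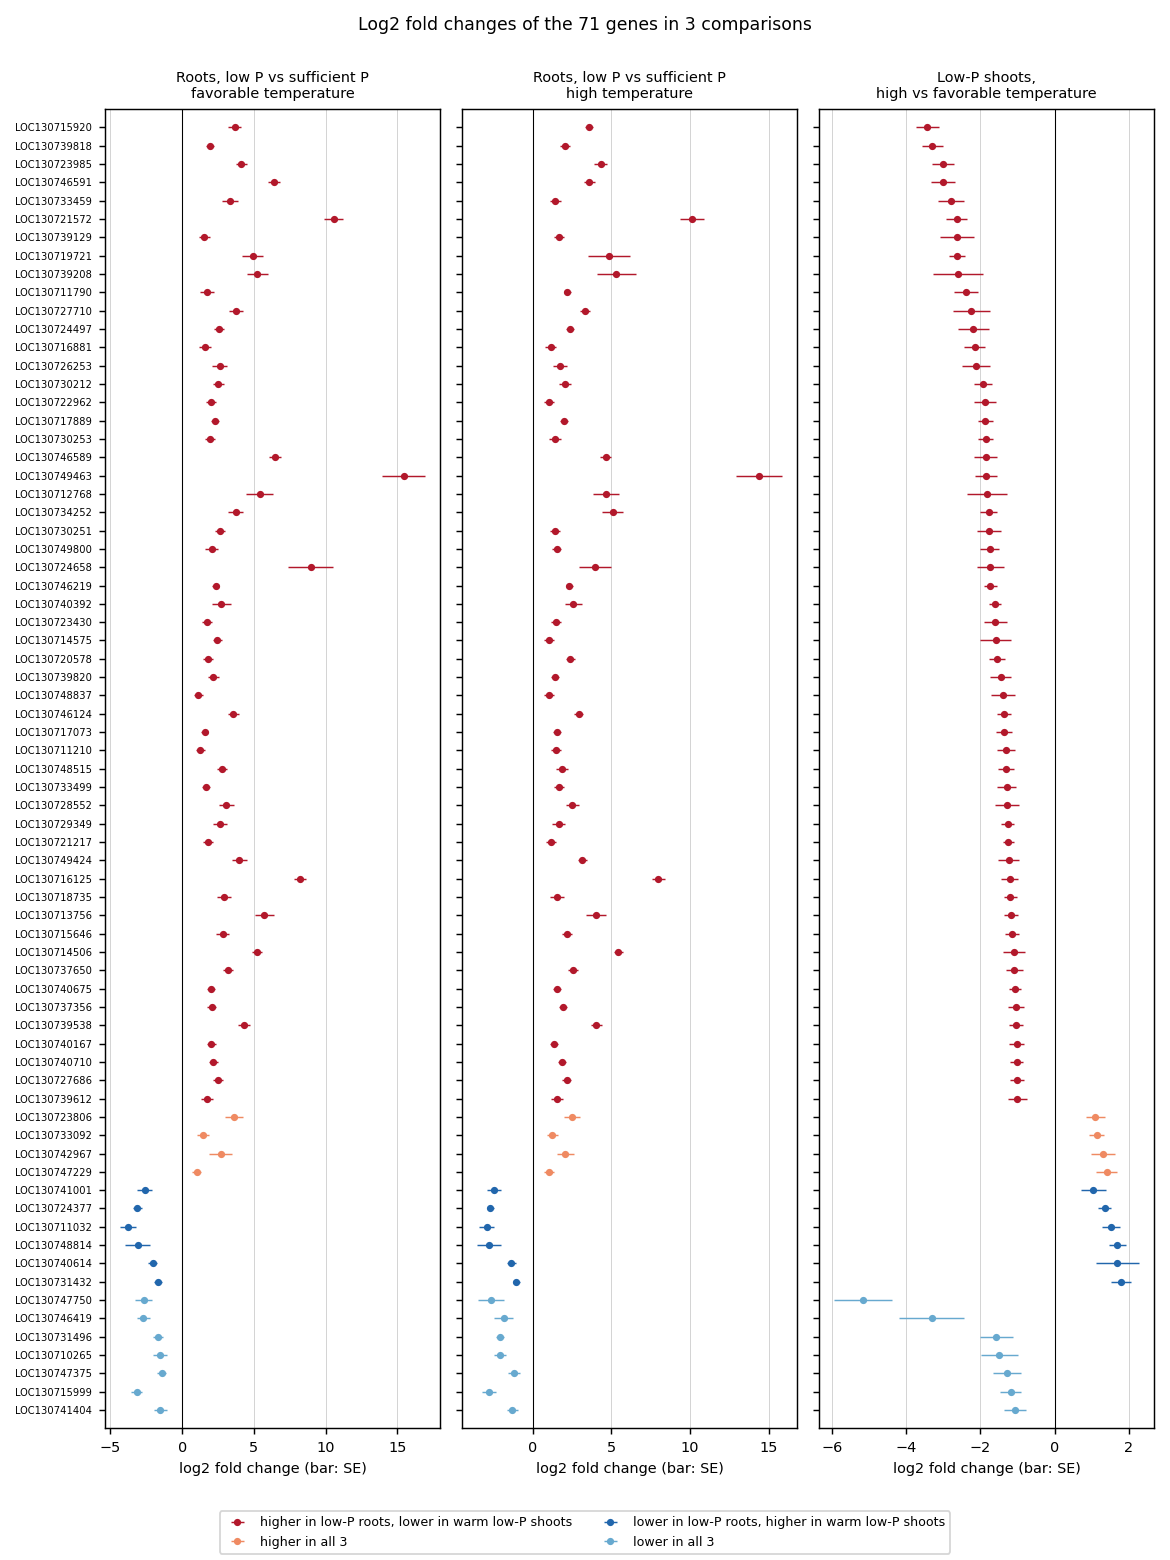
Log2 fold changes (x axis) of the 71 genes (1 row each) in the 3 comparisons, with the authors' standard errors as bars; colors give the 4 direction patterns. The 54 genes at the top (dark red) lie right of 0 in both root panels and left of 0 in the shoot panel.

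Among the 54 genes that rose in roots and fell in shoots, 14 fell at least 4-fold in shoots. The share of all listed genes with a 4-fold fall was not worked out, so this count is not read as particular to the members. LOC130715920 had the largest shoot fall of the 54. It went from 389 normalised counts in low-P shoots at the favorable temperature to 36.2 at the high temperature, a log2 fold change of -3.43 ± 0.31 in the authors' deposited table. In roots low P raised it from 149.98 to 1919 normalised counts at the favorable temperature and from 163 to 1954 at the high temperature, log2 fold changes of 3.68 ± 0.46 and 3.58 ± 0.25 in the authors' deposited tables. Its 2 root folds differed by less than the standard error of their difference.

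LOC130739818 fell from 930 to 94.7 normalised counts in warm low-P shoots, a log2 fold change of -3.30 ± 0.28 in the authors' deposited table. Its root rises were smaller than this fall, at 1.94 ± 0.28 (favorable temperature) and 2.07 ± 0.32 (high temperature) in log2 units in the authors' deposited tables. LOC130723985 fell from 1056 to 131 normalised counts in shoots (log2 fold change -3.01 ± 0.29 in the authors' deposited table). In roots its log2 fold changes were 4.11 ± 0.38 and 4.33 ± 0.40 in the authors' deposited tables. These 3 genes had nearly equal root folds at the 2 temperatures.

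The pair LOC130746591 and LOC130746589 are next to each other among the protein-coding genes of the RefSeq annotation of the Gifu accession. LOC130746591 fell from 2117 to 264 normalised counts in warm low-P shoots, a log2 fold change of -3.01 ± 0.32 in the authors' deposited table. In roots it rose from 20.2 to 1720 normalised counts at the favorable temperature and from 45.8 to 561 at the high one, log2 fold changes of 6.42 ± 0.41 and 3.61 ± 0.37 in the authors' deposited tables. LOC130746589 fell from 1704 to 469.9 normalised counts in shoots (log2 fold change -1.86 ± 0.31 in the authors' deposited table). Its root rises were 6.46 ± 0.43 and 4.64 ± 0.34 in log2 units in the authors' deposited tables. Both neighbours thus rose in roots and fell in warm shoots, and both had the smaller root rise at the high temperature. Whether the neighbours are near-identical copies that share reads was not tested.

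LOC130733459 fell from 407 to 58.5 normalised counts in shoots, a log2 fold change of -2.80 ± 0.35 in the authors' deposited table. Its root rise under favorable conditions was 3.32 ± 0.53, and under high temperature 1.44 ± 0.33, in log2 units in the authors' deposited tables. LOC130721572 fell from 1038 to 167 normalised counts in shoots. In roots it was close to silent at sufficient P, at 3.34 and 1.97 normalised counts, and reached 5006 and 2226 at low P. That is a 1498-fold rise at the favorable temperature and an 1131-fold rise at the high temperature from the authors' deposited folds.

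The remaining 8 genes with at least 4-fold falls in shoots are named for that count with their values known, except LOC130739208, which the rule for named genes gives. LOC130739129 and LOC130711790 stood at 4530 and 8397 normalised counts in roots at low P and the favorable temperature. At the high temperature, in a separately scaled table, their low-P root levels were 669 and 1490 normalised counts. In shoots LOC130739129 fell to 73.9 normalised counts (log2 fold change -2.63 ± 0.46) and LOC130711790 to 44.4 (-2.39 ± 0.32) in the authors' deposited table. LOC130719721 had more reads in shoots, in tables that were scaled apart. Its base mean was 543 normalised counts in low-P shoots but 64.6 and 14.4 in the 2 root comparisons of the authors' deposited tables. It fell from 934 to 151 normalised counts in warm low-P shoots, while in low-P roots it reached 124.95 and 27.8 normalised counts. LOC130739208 fell from 96.2 to 15.8 normalised counts in shoots, with the widest error of the 14 (log2 fold change -2.61 ± 0.68 in the authors' deposited table). The shoot log2 fold changes of LOC130727710, LOC130724497, LOC130716881 and LOC130726253 were -2.24 ± 0.50, -2.20 ± 0.42, -2.16 ± 0.28 and -2.13 ± 0.38 in the authors' deposited table.

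The largest root rises of the 71 genes all belonged to members that fell in warm low-P shoots. LOC130749463 was fitted at under 1 normalised count in sufficient-P roots at both temperatures and reached 7817 and 3874 normalised counts at low P. Its deposited log2 fold changes of 15.44 ± 1.48 and 14.38 ± 1.48 in the authors' deposited tables are fitted values, because the lower level was so near 0. In low-P shoots the same gene stood at 10062 normalised counts at the favorable temperature and fell to 2806 at the high one (log2 fold change -1.84 ± 0.29 in the authors' deposited table).

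LOC130716125 rose from 19.4 to 5723 normalised counts in roots at the favorable temperature and from 11.7 to 2986 at the high one. These are log2 fold changes of 8.21 ± 0.43 and 7.99 ± 0.41 in the authors' deposited tables, or 296-fold and 255-fold. In low-P shoots it fell from 8212 to 3545 normalised counts, or a log2 fold change of -1.21 ± 0.23 in the authors' deposited table. LOC130714506 rose from 124 to 4627 and from 75.8 to 3327 normalised counts in roots, and fell from 6618 to 3093 in shoots. These genes had far fewer reads in phosphate-sufficient than in low-P roots at each temperature. LOC130724658 went from a level fitted under 1 to 86.9 normalised counts at low P in roots of the favorable regime, and rose from 2.39 to 37.4 at the high temperature. It fell from 192 to 57.6 normalised counts in shoots (log2 fold change -1.73 ± 0.37 in the authors' deposited table).

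**Figure D2:**
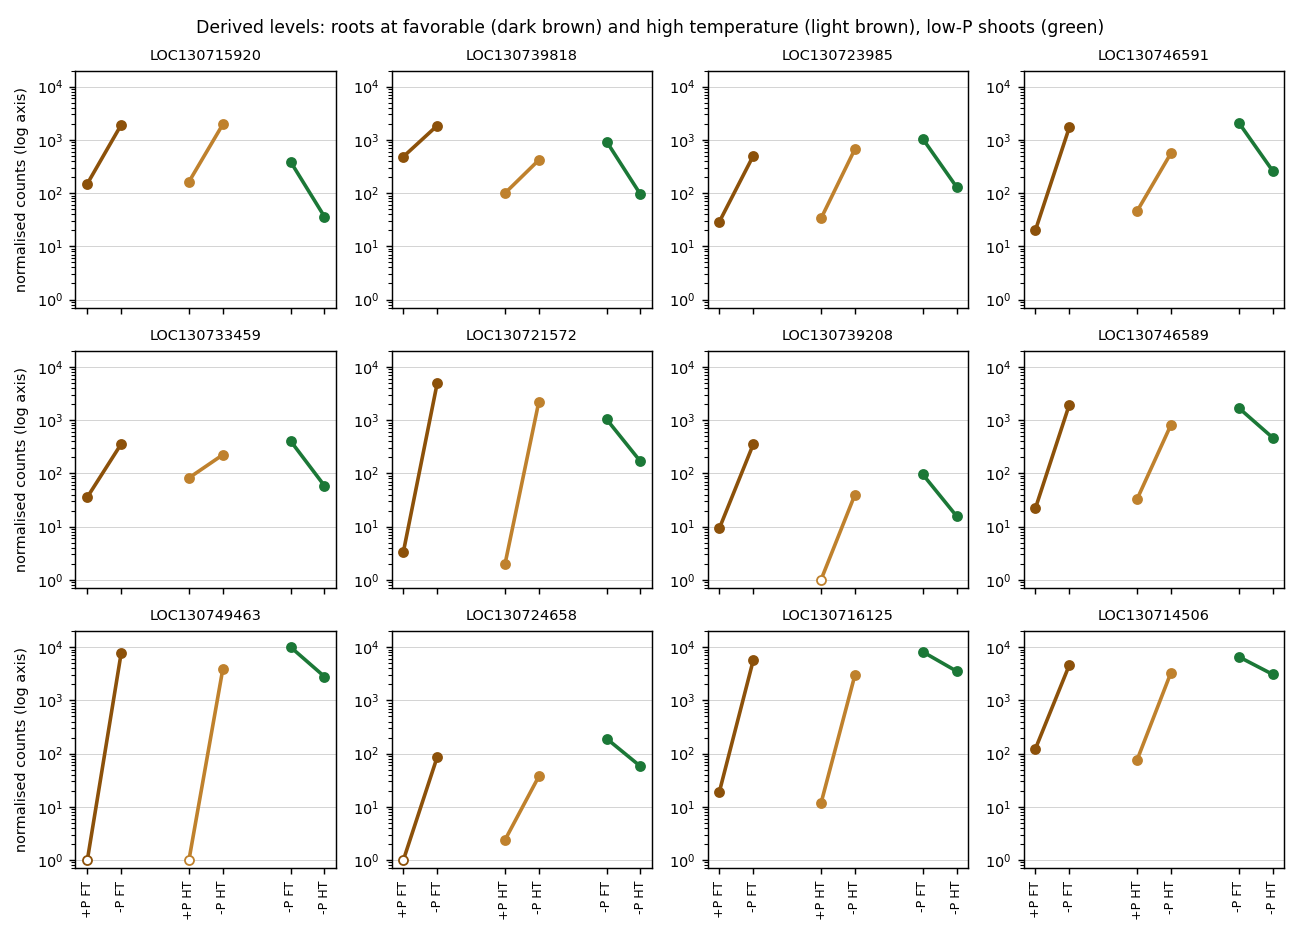
Levels in normalised counts (log axis) of 12 genes that rose at low P in roots and fell at high temperature in low-P shoots, in the 2 groups of each comparison (+P sufficient P, -P low P, FT favorable, HT high temperature). Lines join the groups of 1 table, open circles are levels fitted under 1 and drawn at 1, and no error bars are drawn because no values per library are given; LOC130749463 goes from under 1 to 7817 in roots and from 10062 to 2806 in shoots.

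The 3 members with the highest root base means include LOC130722962 and LOC130717073; read totals also grow with transcript length. LOC130722962 rose from 14959 to 61132 normalised counts at the favorable temperature and from 29454 to 61410 at the high one. Its log2 fold changes were 2.03 ± 0.35 and 1.06 ± 0.31 in the authors' deposited tables. In shoots it fell from 8468 to 2307 normalised counts (log2 fold change -1.88 ± 0.30 in the authors' deposited table). LOC130717073 rose from 15622 to 46013 and from 9667 to 28490 normalised counts in roots, with a log2 fold change of 1.56 at each temperature (SE 0.25 and 0.23) in the authors' deposited tables. It fell from 8102 to 3141 normalised counts in shoots. The latter gene thus had equal root folds at both temperatures to 2 decimals, and LOC130722962 the larger one at the favorable temperature.

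In shoots the 2 highest base means of the 54 were those of LOC130739820 and LOC130733499. LOC130739820 fell from 16614 to 6060 normalised counts, or a log2 fold change of -1.46 ± 0.28 in the authors' deposited table. It lies next to LOC130739818 among protein-coding genes of the RefSeq table, and it too rose in roots, by 2.16 ± 0.38 and 1.42 ± 0.24 in log2 units in the authors' deposited tables. LOC130733499 fell from 12141 to 4946 normalised counts in shoots and had root rises of 1.67 ± 0.27 and 1.66 ± 0.32 in log2 units in the authors' deposited tables. Another close pair, named for its position with its values known, was LOC130730251 and LOC130730253, with 1 protein-coding gene between them. LOC130730251 fell by 1.77 ± 0.31 and LOC130730253 by 1.86 ± 0.20 in log2 units in shoots in the authors' deposited table. In roots LOC130730251 rose by 2.66 and 1.44, and LOC130730253 by 1.94 and 1.43, in log2 units in the authors' deposited tables. All 3 pairs of close members thus had both genes rising in roots and falling in shoots. This was also the pattern of 54 of the 71 members (76.1%), so nothing is read from the pairs. Whether the genes of any pair share reads was not tested.

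The shoot falls of the other 40 of the 54 genes were under 4-fold. Their shoot log2 fold changes ran from -1.93 to -1.01 with a median of -1.34, and their median level went from 1785 normalised counts at the favorable temperature to 764 at the high one. Not already chosen for naming were 29 of these, with root log2 fold changes of 1.12 to 5.73 at the favorable temperature and 1.05 to 5.08 at the high one in the authors' deposited tables. Their medians were 2.52 and 1.92 in roots and -1.31 in shoots. Within this group LOC130713756 had the largest root rise at the favorable temperature, from 3.75 to 199 normalised counts, and LOC130734252 the largest at the high temperature, from 3.87 to 131. Both are named with their values known. Nearest to the fold limit in shoots were LOC130739612 and LOC130727686, which both fell by 1.01 on the log2 scale (SE 0.26 and 0.18) in the authors' deposited table.

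At least 4-fold changes in all 3 comparisons were found in 9 members, 8 of which rose in roots and fell in shoots. The 8 were LOC130715920, LOC130723985, LOC130746591, LOC130721572, LOC130719721, LOC130739208, LOC130727710 and LOC130724497, and the ninth, LOC130747750, fell in all 3. In sufficient-P roots at the high temperature LOC130719721 and LOC130739208 were fitted at under 1 normalised count. The SE of their root log2 fold changes there was 1.35 and 1.22 in the authors' deposited table. Over the 54 genes, 41 rose at least 4-fold in roots at the favorable temperature, 29 at the high temperature and 26 at both. Shares past 4-fold were not worked out for all listed genes, and the folds were used in choosing the members. These 4-fold counts are therefore not read as a trait of the members.

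The root rise was usually the larger change. The shoot fall was larger than the root rise for 6 of the 54 genes at the favorable temperature, for 15 at the high temperature and for 5 at both. These 5, named for that count, were LOC130739818, LOC130739129, LOC130711790, LOC130716881 and LOC130748837. Root rise and shoot fall were only weakly related in size. Across the 54 genes, Pearson's r between the root log2 fold change at the favorable temperature and the shoot log2 fold change was -0.18 (Spearman's rho -0.15), and -0.13 without the 2 genes farthest from the median root fold. For the high-temperature root folds r was -0.19 and rho -0.17. These values describe genes from the same libraries, which are not independent replicates, and both axes are cut off at 2-fold.

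**Figure D3:**
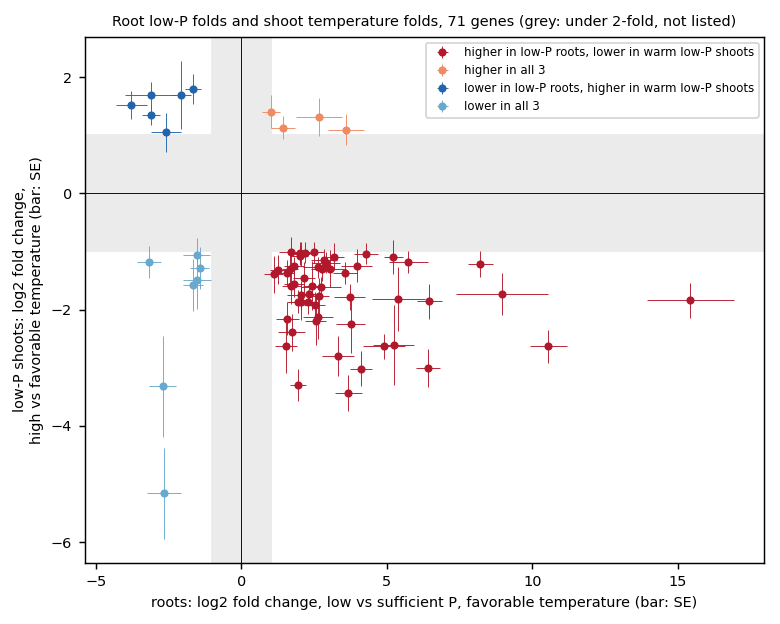
Root log2 fold change at low P, favorable temperature (x axis) against the log2 fold change at high temperature in low-P shoots (y axis) for the 71 genes, with the authors' standard errors. The lower right part holds 54 genes, the upper right 4, the upper left 6 and the lower left 7; grey bands mark changes under 2-fold, which the tables do not list.

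Most members had the larger root fold at the favorable temperature. The absolute root fold was larger there for 56 of the 71 genes (78.9%) and larger at the high temperature for 15, with a median difference of 0.41 on the log2 scale. Both folds were used in choosing the members. The same share was not worked out for all 542 genes listed in both root comparisons, so it is not read as particular to the members. Across the 54 genes the 2 root folds had a Pearson's r of 0.93 (Spearman's rho 0.80), and r was 0.84 without the 2 genes farthest from the median. A total of 8 differences exceeded 2 of their own standard errors, and all 8 were rises that were larger at the favorable temperature. Rises made up 58 of the 71 members. The number past 2 standard errors among all 542 genes was not worked out, so the 8 are not read as particular to the members. The largest difference relative to its standard error was that of LOC130746591, at -2.80 ± 0.55 for the high minus the favorable temperature on the log2 scale. LOC130724658 had the largest log2 difference, -4.98, but with an SE of 1.88 and a lower level fitted under 1. LOC130733459 differed by -1.88 ± 0.63. The other 5, named for that count, were LOC130722962, LOC130746589, LOC130730251, LOC130714575 and LOC130718735. Standard errors moved with this pattern, being smaller at the high temperature for 56 of the 71 genes (median log2 ratio, high over favorable, -0.18). Their part in the difference was not tested.

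**Figure D4:**
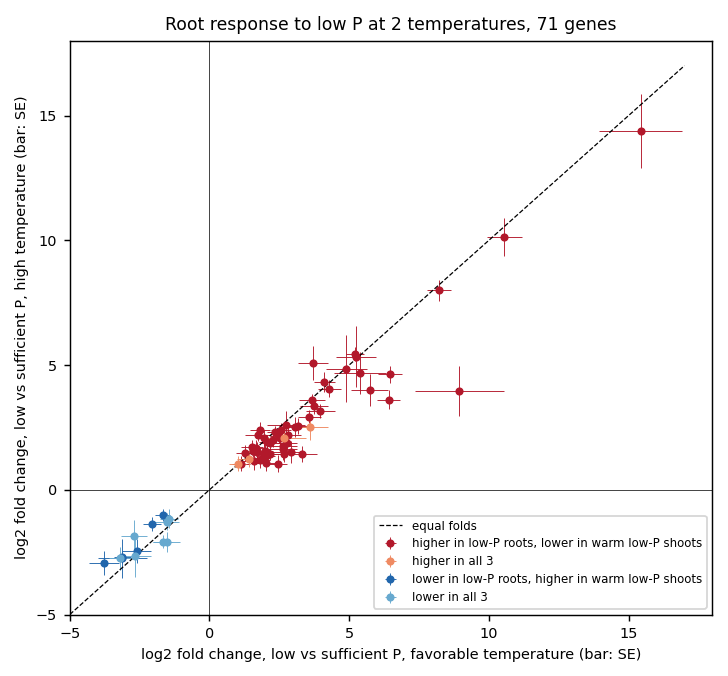
Log2 fold change at low P in roots at the favorable (x axis) and the high temperature (y axis) for the 71 genes, with the authors' standard errors; the dashed line marks equal folds. All genes lie in the lower left or upper right part, and for 56 the absolute fold is larger at the favorable temperature.

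The ratio of shoot to root reads differed widely between members, in tables that were scaled apart. The shoot base mean was over 10 times the mean root value (the geometric mean of both root base means) for 8 members and the root value was over 10 times the shoot value for 4. Among the 54, the shoot value was the higher for 33 genes, and the median ratio of shoot to root was 1.92. The 6 genes of the 54 with over 10 times more in shoots, named for that count, were LOC130719721, LOC130740392, LOC130729349, LOC130721217, LOC130713756 and LOC130740710. LOC130740710, for example, reached 647 and 495 normalised counts in low-P roots and stood at 9079 in low-P shoots at the favorable temperature, falling to 4469 at the high one. LOC130711790 alone of the 54 had over 10 times more in roots.

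Only 4 members rose in all 3 comparisons, and their shoot rises were small. LOC130747229 rose from 295 to 779 normalised counts in warm low-P shoots, a log2 fold change of 1.40 ± 0.28 in the authors' deposited table. In roots its rises were the smallest of the 4, at 1.02 ± 0.31 and 1.05 ± 0.31 in log2 units in the authors' deposited tables. LOC130742967 rose in shoots from 118 to 292 normalised counts (log2 fold change 1.31 ± 0.32 in the authors' deposited table). LOC130733092 rose from 3810 to 8339 normalised counts in shoots and from 963 to 2592 and 2107 to 4996 in roots. LOC130723806 had the largest root rises of the 4, 3.60 ± 0.63 and 2.50 ± 0.52 on the log2 scale, and rose by 1.10 ± 0.26 in shoots in the authors' deposited tables.

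The 6 members that fell in roots and rose in warm low-P shoots mirrored the main pattern. LOC130731432 fell from 23412 to 7362 normalised counts in roots at the favorable temperature and from 20180 to 9903 at the high one. In low-P shoots, a separately scaled table, it had few reads and rose from 94.6 to 328 normalised counts, or a log2 fold change of 1.79 ± 0.26 in the authors' deposited table. LOC130748814 was its opposite in tissue balance. It rose from 22173 to 71489 normalised counts in warm low-P shoots (log2 fold change 1.69 ± 0.23 in the authors' deposited table) and fell from 44.1 to 5.09 and from 53.7 to 7.97 normalised counts in roots. Its shoot base mean, 46831 normalised counts in the authors' deposited table, was the highest of all 71 members in shoots.

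LOC130711032 had the largest root fall of the 71 genes at both temperatures, from 3499 to 254 normalised counts at the favorable one (log2 fold change -3.79 ± 0.54 in the authors' deposited table). At the high temperature its log2 fold change was -2.93 ± 0.49, and in shoots it rose from 2159 to 6183 normalised counts (1.52 ± 0.24 in the authors' deposited tables). LOC130724377 fell from 6207 to 716 and from 10460 to 1615 normalised counts in roots and rose from 1082 to 2760 in shoots. LOC130740614 rose from 14.4 to 46.7 normalised counts in shoots, near the limit of listing (1.69 ± 0.59 log2 units in the authors' deposited table, where the DESeq2 adjusted p was 0.047). The last of the 6, LOC130741001, is outside the rule for named genes and rose by 1.05 ± 0.34 in log2 units in shoots in the authors' deposited table. All 6 had the larger root fall at the favorable temperature, and no difference exceeded 2 of its standard errors.

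The 7 members that fell in all 3 comparisons included the deepest shoot fall of the 71 genes. LOC130747750 fell from 5318 to 149 normalised counts in warm low-P shoots, 35.7-fold, with a log2 fold change of -5.16 ± 0.78 in the authors' deposited table. In roots it fell from 592 to 93.1 and from 101 to 15.9 normalised counts, or a log2 fold change of -2.67 at both temperatures (SE 0.59 and 0.83) in the authors' deposited tables. LOC130746419 fell from 43.6 to 4.37 normalised counts in shoots (log2 fold change -3.32 ± 0.87 in the authors' deposited table) and had a DESeq2 adjusted p of 0.049 in warm roots. LOC130715999 fell most in roots among the 7 at the favorable temperature, from 450 to 49.6 normalised counts, and its shoot log2 fold change was -1.18 ± 0.28 in the authors' deposited table. LOC130747375 was the member nearest the limit on adjusted p, changing by -1.16 ± 0.39 log2 units in warm roots in the authors' deposited table, which gives a DESeq2 adjusted p of 0.0497. The other 3, LOC130731496, LOC130710265 and LOC130741404, are outside the rule for named genes. They had shoot log2 fold changes of -1.58, -1.49 and -1.06 in the authors' deposited table.

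Values just outside the limits are not listed, so those of genes that narrowly missed cannot be given. The smallest member folds were 1.02 for LOC130747229 and -1.03 for LOC130731432 (roots under the favorable and the high regime, in that order) and -1.01 for LOC130739612 in shoots, in the authors' deposited tables. Absence from the sufficient-P shoot table likewise means that a gene missed a limit there, not that it did not respond.

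The direction in shoots can be set beside that of the other genes listed in both root comparisons, as counts with no test. Of the 316 genes that rose in both, 58 were listed in low-P shoots only, and 54 of these (93.1%) fell there. Listed in sufficient-P shoots only were 29, of which 3 (10.3%) fell and 26 rose. In that shoot comparison 4.51% of all genes tested rose and 3.77% fell. The shares in the low-P shoot comparison were 1.74% and 2.43%. Of the 222 genes that fell in both root comparisons, 13 were listed in low-P shoots only, with 7 falling and 6 rising, and 44 in sufficient-P shoots only, with 25 falling and 19 rising. The counts in low-P shoots were one-sided for genes that rose in roots and near even for those that fell. Since listing chose these genes, nothing more is read from the counts. Another 23 genes were listed in both root and both shoot tables. Of these, 9 rose in roots and fell in low-P shoots, and at sufficient P 5 of the 9 fell and 4 rose.

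**Figure D5:**
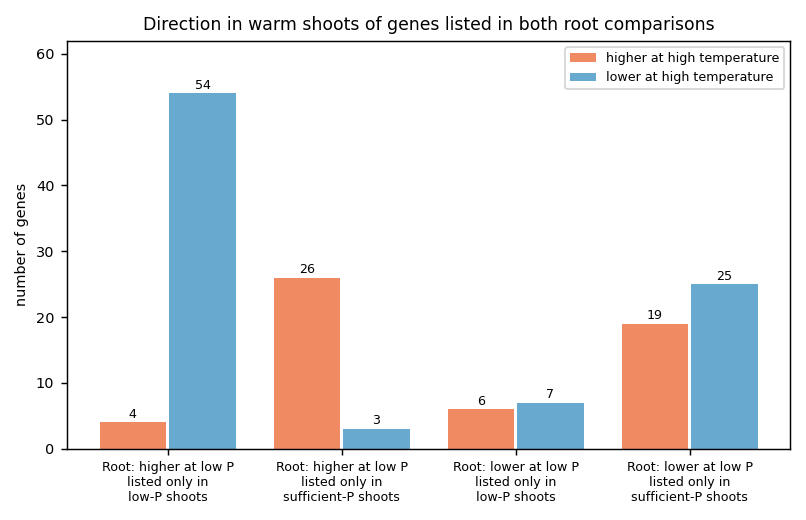
Number of genes (y axis) listed in both root comparisons and in 1 shoot comparison only that were higher or lower at high temperature in those shoots, split by their root direction (x axis). The 2 pairs of bars for low-P shoots are the 71 genes; 54 of the 58 that rose in roots fell in low-P shoots, while 26 of 29 rose in sufficient-P shoots.

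Genes with larger root rises were more often among the 54, which is a description because the root folds were used in the choice. Of all 316 genes that rose in both root comparisons, 17.1% were among the 54. With the 316 genes that rose in both root comparisons ranked by the mean of their 2 log2 fold changes and cut into 4 equal bins of 79, the highest bin held 20 of the 54 (25.3% of the bin). The next held 18 (22.8%), the one after it 12 (15.2%) and the lowest 4 (5.06%). Of the 20 genes with the largest rises, 7 were among the 54. Expression moved with this order, since the median root base mean was 226, 257, 473 and 674 normalised counts from the highest to the lowest bin. The median root standard error also moved with it, at 0.46, 0.37, 0.33 and 0.31. The part of expression or of the standard error in the order was not tested.

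Among genes listed in 1 root comparison and in low-P shoots only, the same direction was common for the favorable-temperature root table. There 50 of 77 genes (64.9%) rose in roots and fell in shoots, and 3 of the 77 rose in both tissues. For the high-temperature root table it was 6 of 17 (35.3%), and 9 of the 17 rose in both tissues. Among the members it was 54 of 71 (76.1%), and 4 of the 71 rose in both tissues. These shares are of all genes in each set, not only of those that rose in roots. No library is common to root and shoot comparisons, but both include the low-P treatment groups, and the sources used here do not say whether the 2 organs were taken from the same plants.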

How the data were processed

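Whole roots and shoots were sequenced as poly(A) RNA (paired ends of 150 bp, per the labels' protocols). Tools in the submitters' processing notes are DESeq2 1.44.0, RSEM 1.3.3, Trimmomatic 0.39.2 and FastQC 0.14.0; the sources used here do not name an aligner, genome build or annotation. Per the file headers, the 4 tables the authors deposited are DESeq2 results for 2 groups each. The deposited base mean is a value that the authors made by dividing counts by size factors and averaging over libraries. The deposited standard error and Wald statistic are score columns that DESeq2 computed for the authors. The log2 fold change, p-value and adjusted p-value are as deposited. The values show that the authors listed only genes past an adjusted p-value of 0.05 whose log2 fold change was at least 1 in size.

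The members and gene lists were chosen with earlier results of these data known. From each table (Python 3.11.15, pandas 2.3.3) the level in the 2 groups was derived as the pair of values whose mean is the base mean and whose ratio is the fold, for 2 libraries a group. The number of genes tested was taken as the largest product of adjusted p and rank over p among listed rows. This recovered the true number on made-up tables that had no fold limit. The deposited tables do have one, and there the product can fall below the true number but not exceed it. The shares of all genes tested are therefore upper bounds. All 71 identifiers matched a RefSeq gene table (assembly LjGifu_v1.2), used only for symbols and neighbours. Named genes were those with the 8 largest changes each way in shoots, the 5 largest each way in each root comparison, the 3 highest base means per comparison, the 3 nearest each limit, the 3 largest differences between root folds, and patterns of 5 or fewer genes; other names are marked in the text. The product-based gene lists, tissue markers and promoter motifs planned were not scored, since the sources used here hold no products or sequences. Base means grow with transcript length and were not corrected for it.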

Additional observations from a re-analysis of the deposited data

How the results depend on the processing

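No paired analysis was possible because single libraries have no values in the deposited tables. Other count tools, scalings, count filters, pseudocounts and fits without 1 replicate were not run either. The promoter alternatives were not run for want of sequences. Values of single genes are the authors' and do not change with the settings. Of 63 recomputed values, 47 stayed within 1.5 times (counts), within the median standard error (median folds) or within the binomial interval (shares). Of the 63, 12 count identical rows once and could not change, as no member has an identical row. Dropping members with opposite root directions could not change the member count either, as there were none. The 47 also include counts of 6 and 7 that exchanged their genes when the shoot table was read the other way round.

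With an adjusted p under 0.01 in all 3 comparisons, 2 genes rose in all 3 and 2 fell in all 3, and the median root folds of members that fell became -3.11 and -2.72 (favorable and high temperature). At least 4-fold changes in all 3 left 9 members: 8 that rose in roots and fell in shoots, 0 that rose in all 3, 0 that fell in roots and rose in shoots, and 1 that fell in all 3. With a base mean of at least 100, 3 genes fell in all 3 and the median root fall at the high temperature was -2.45. Without the demand for absence from sufficient-P shoots, 7 genes rose in all 3, 13 fell in roots and rose in shoots, and 11 fell in all 3. If the shoot table were read the other way round, the main direction would reverse: 4 genes would rise in roots and fall in shoots and 54 would rise in all 3.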
